A study of Mus musculus with 9 samples.

Results

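Genes whose signal in chemically induced mouse cells lay outside the range of both the fibroblasts they were made from and the cardiomyocytes they were aimed at are described here. They were chosen by their own values on the 9 arrays of the series. A gene counted as above both groups when its lowest value among the 3 arrays of induced cells was higher than the highest of the 6 other arrays, and its group mean was at least 1 higher on the log2 scale than each of the other group means. Genes below both groups met the same condition in the other direction. Of 18193 genes, 1270 met it: 661 were above both groups (3.63%) and 609 were below both (3.35%). Because those values made the choice, every difference between induced cells and the other groups is given as a description, without a test.

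The fibroblasts (MEF, 3 samples) were prepared from C57BL/6 embryos at embryonic day 13.5. The induced cells (CiCM, 3 samples) came from MEF treated with 10 µM CHIR99021, 10 µM RepSox, 50 µM forskolin, 0.5 mM VPA, 5 µM Parnate and 1 µM TTNPB, and only contracting clusters were collected, on day 24. The cardiomyocytes (CM, 3 samples) were taken directly from mouse hearts; their age, strain and purification are not given in the labels. No group with only part of the cocktail, and no MEF cultured untreated to day 24, was analysed here, so treatment, time in culture and the picking of clusters cannot be told apart. The values are deposited log2 signals of 1-colour arrays, on which a difference of 1 is a doubling.

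Skeletal and heart muscle contract with the same machine, the sarcomere, but build it from different genes. Skeletal muscle uses its own myosins and fast troponins, couples its calcium release to a voltage sensor by touch, receives nerve signals through acetylcholine receptors and forms by fusion of myoblasts under MyoD family factors. Heart muscle uses other myosin and troponin genes, a different calcium release channel, and factors such as Nkx2-5 and Gata4. Of the compounds, CHIR99021 inhibits GSK3 and so activates Wnt/beta-catenin signalling, RepSox blocks the TGF-beta receptor kinase, forskolin raises cAMP and TTNPB activates retinoic acid receptors, while VPA and Parnate act on chromatin enzymes.

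Marker genes placed the 3 groups as follows. The mean signal of 23 skeletal muscle markers was 12.30 to 12.54 on the CiCM arrays, 3.83 to 4.23 on MEF and 5.78 to 5.90 on CM. The mean of 20 cardiomyocyte markers was 6.55 to 7.37 in CiCM, with 7 of them at or over 6.58, the median of the whole table, against 5.15 to 5.33 in MEF and 12.73 to 12.87 in CM. Over 25 sarcomere genes of the heart, the median difference of CiCM was 6.51 from MEF and -1.63 from CM, but 3 defining heart genes were far lower than in CM. Myh6, the main heart myosin, read 6.75, 8.0 and 6.64 against 15.41 to 15.94 in CM, Tnni3 5.02, 6.8 and 5.48 against 14.87 to 15.33, and Ryr2 4.93, 4.71 and 5.94 against 13.91 to 14.34. The mean of 20 fibroblast markers was 12.43 to 12.50 in CiCM, 12.71 to 12.72 in MEF and 10.38 to 10.75 in CM, and Col1a1 read 13.50, 13.62 and 13.69 in CiCM and 13.09, 13.54 and 13.33 in MEF. Markers of macrophages had means of 10.15 to 10.23 in MEF and 10.08 to 10.35 in CM, and those of endothelium 10.72 to 10.91 in CM, so transcripts of further cell types were measured in both other groups; their part in the results was not tested. Among the CM arrays, replicate 1 was the least like its group; without it 714 genes were above both groups and 652 below, of which 632 and 591 belong to the members.

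The members differed widely in size. For the 661 genes above both groups the smaller of the 2 differences, which limits membership, had a median of 1.81, and it was at least 4 for 81 genes and at least 8 for 14. For the 609 genes below both the median was -1.72; 19 genes were at least 4 lower than each group and none 8 lower. Just inside the limit of 1 above both lay Ctif (1.002), Enho (1.007) and Msx2 (1.007), and just outside it Mgst2 (0.999), Ebf4 (0.997) and Dcun1d4 (0.996). Just inside the limit below both lay Paqr4 (-1.001), Ogfrl1 (-1.002) and Mta1 (-1.003), and Jmjd4 (which rounds to the limit), Zfp113 (-0.999) and Nlrp3 (-0.999) lay just outside it. A further 1132 genes were separated upward and 969 downward from all 6 other arrays by less than the limit.

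Among the genes above both groups, 255 reached the median of the table only in CiCM, 215 reached it in all 3 groups, 105 in CiCM and 1 other group, and 86 lay under it even in CiCM. Of the genes below both, 241 were under the median only in CiCM, 207 were over it in all groups, 74 were under it in CiCM and 1 other, and 87 in all 3. Values near the floor of such arrays scatter strongly, so the differences were also computed after adding 32 to each linear signal. With it 536 of the 661 genes above both and 393 of the 609 below both kept their membership, and genes are named below in the order of the smaller difference computed that way. The median SD over the 3 CiCM arrays was 0.19 for genes above both, 0.46 for genes below both and 0.24 for all genes. For genes above both it was 0.34 in MEF and 0.61 in CM, and for genes below both 0.14 and 0.3. The rule itself asks for separated arrays, so these spreads are a description.

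By the same rule, 2147 genes had MEF outside both other groups, 1076 above (5.91%) and 1071 below (5.89%), and 3530 had CM outside, 2031 above (11.2%) and 1499 below (8.24%). CiCM was thus the group with the fewest genes of its own by this rule. Other probe sets of the same genes gave a partial repeat of the measurement. In 297 genes above both, 522 further probe sets were present, of which 398 had CiCM means on the same side of both groups and 236 met the rule themselves. In 302 genes below both, 413 of 551 further probe sets lay on the same side and 193 met the rule.

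**Figure D1:**
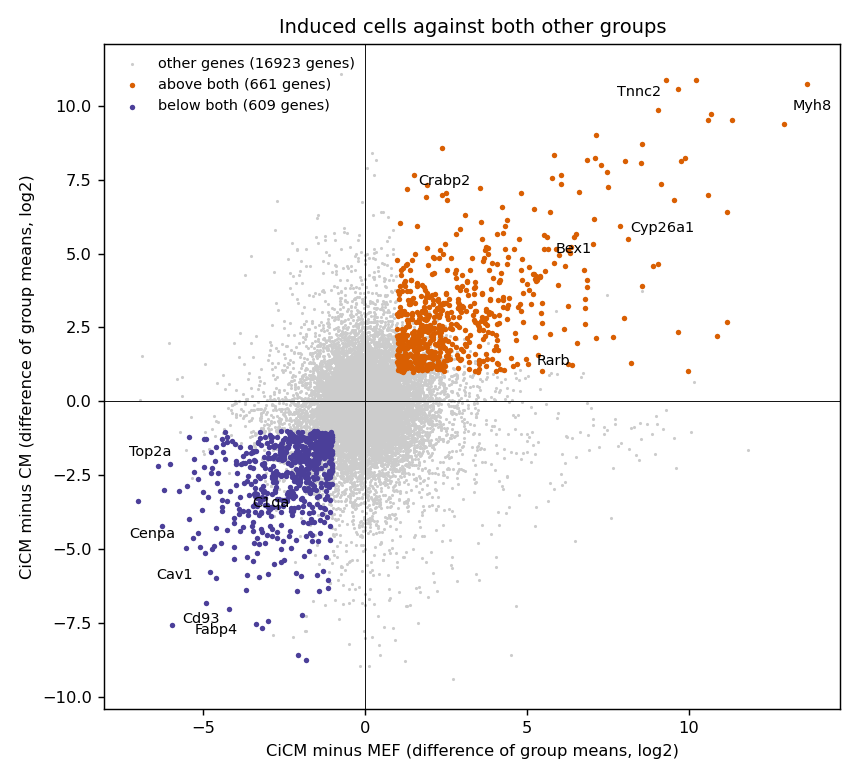
Difference of group means between CiCM and MEF (horizontal axis, log2) and between CiCM and CM (vertical axis, log2) for 18193 genes, each a point; both differences share the CiCM arrays, so no relation between them is read from the plot. The 661 genes above both groups (orange) reach much farther from the origin than the 609 below both (violet), and 12 genes described in the text are named.

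Skeletal muscle genes led the members above both groups. Of 27 measured genes of the fast and developmental skeletal sarcomere, 24 were above both groups and none below, against 3.63% of all genes above, and the list's median difference was 9.68 from MEF and 5.56 from CM, where all genes had 0.00 and -0.10. Of 23 skeletal muscle markers, 20 were above both and none below. The counts stayed at 24 and 20 whichever single array was left out. The skeletal lists share many genes and were written with earlier results of these data known, so they do not add to each other.

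The largest difference belonged to Myh8, the perinatal myosin heavy chain. Myh8 read 14.34, 14.46 and 14.60 in CiCM, 0.52, 0.00 and 1.88 in MEF, and 5.19, 4.42 and 1.58 in CM. Myh3, the embryonic myosin, read 14.08, 14.20 and 14.26 in CiCM and at most 4.41 in MEF and 5.35 in CM. The CiCM arrays lay close together in both genes, and 9.15 separated the lowest of them from the nearest other array of Myh8. The adult fast myosins stood apart as well as the developmental ones. Myh1, of fast fibres, read 14.15, 13.92 and 14.12 in CiCM against at most 4.32 in MEF and 6.03 in CM, and Myh4, of the fastest fibres, 13.76, 13.84 and 14.01 against at most 1.32 and 6.15. Myh2, of the intermediate fast fibres, read 13.47, 13.53 and 13.89 against at most 5.17 and 6.8. The signals of different probe sets are not levels that can be ranked, and whether probe sets of these closely related genes hybridise to each other's transcripts was not tested.

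Thin-filament and thick-filament partners showed the same separation. Tnnc2, the fast calcium-binding troponin C, read 14.40, 14.60 and 14.56 in CiCM, 3.73 to 5.79 in MEF and 2.67 to 5.26 in CM. Tnnt3, the fast troponin T, read 14.16 to 14.41 in CiCM and no more than 5.82 elsewhere. Tnni2, the fast inhibitory troponin, read 14.07 to 14.18 in CiCM, 2.27 to 4.70 in MEF and 6.81 to 7.55 in CM, so CM lay between the other groups. Tnni1, the slow skeletal form that the embryonic heart also makes, read 14.20, 14.40 and 14.31 in CiCM and 2.30 to 4.86 in CM. It and Myh7, the slow myosin shared by slow skeletal fibres and the heart, were the only 2 of 25 measured heart sarcomere genes above both groups; Myh7 read 12.62 to 12.91 in CiCM, 8.72 to 10.62 in CM and 5.09 to 6.53 in MEF. Mylpf, the fast regulatory myosin light chain, read 14.83 to 14.99 in CiCM and at most 7.19 elsewhere. Neb, encoding the ruler protein of the thin filament, was 13.05, 12.96 and 13.32 in CiCM, 0.62 to 3.96 in MEF and 5.83 to 7.57 in CM. Mybph, Mybpc1 and Actn3, which bind myosin or anchor actin at the Z-disc, had differences of at least 7.13 from both groups.

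Genes of calcium release followed. Of 28 measured genes of excitation-contraction coupling, 10 were above both groups (35.7%, against 3.63% of all genes) and none below. Ryr1, the calcium release channel of skeletal muscle, read 12.54, 12.66 and 13.01 in CiCM, 3.18 to 3.93 in MEF and 1.40 to 2.61 in CM, whereas Ryr2, the heart's channel, was high in CM alone. Casq1, the skeletal calcium store protein, read 13.57 to 13.82 in CiCM and 7.24 to 8.89 in CM, and Atp2a1, the fast-fibre calcium pump, 12.71 to 13.05 in CiCM and 6.92 to 7.47 in CM. Cacna1s, the voltage sensor, read 10.54, 10.53 and 10.97 in CiCM, 6.32 to 7.20 in CM and 2.19 to 5.47 in MEF. Jsrp1 and Cacng1, further proteins of the voltage sensor's complex, were higher than either group by at least 6.61 and 5.34.

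**Figure D2:**
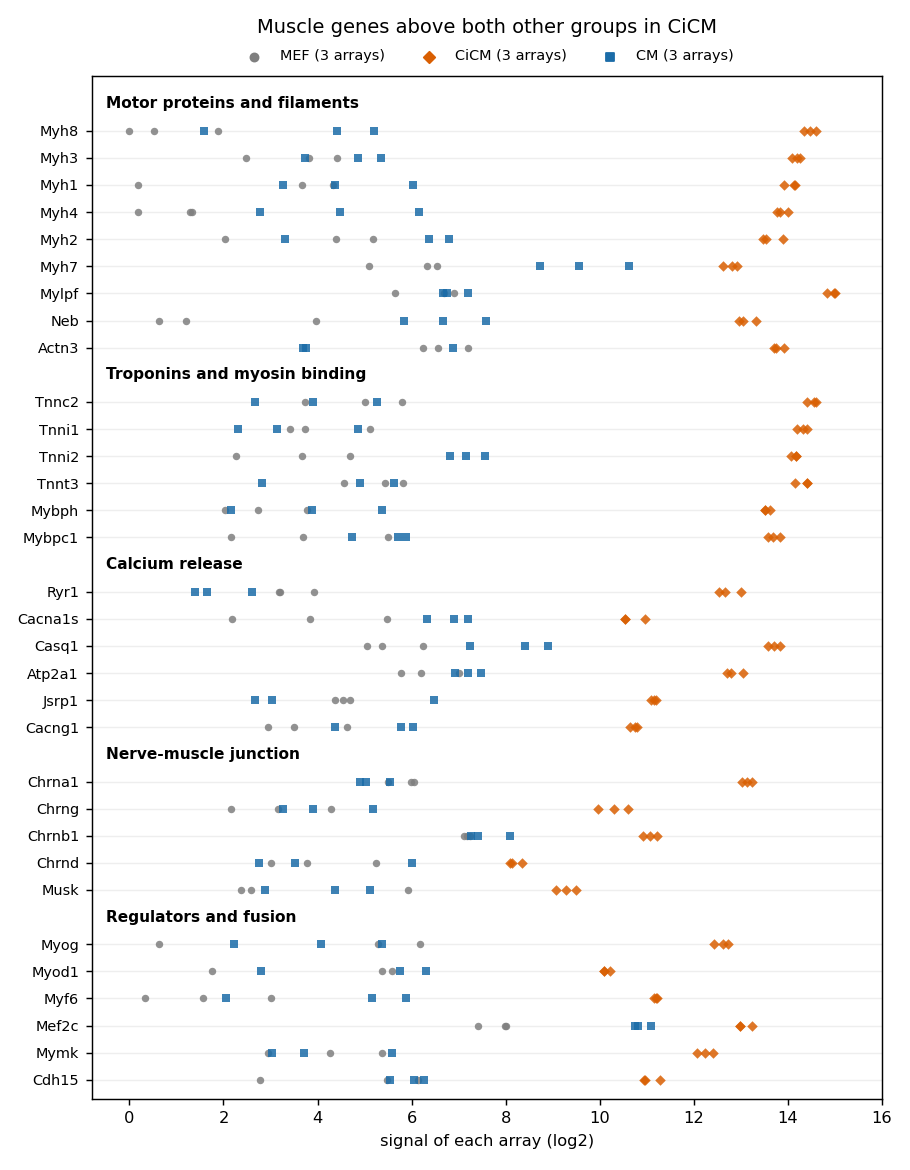
Log2 signal of each of the 9 arrays (horizontal axis) for muscle genes above both groups, by role; gray circles are MEF, orange diamonds CiCM and blue squares CM. In every gene shown the 3 CiCM points lie to the right of the 6 others, at 14.08 or more for Myh3 and at 8.10 or more for Chrnd, and CM lies between MEF and CiCM for Tnni2, Casq1 and Mef2c.

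The acetylcholine receptor of the nerve-muscle junction was above both groups in all 5 of its muscle subunits. Of 21 measured junction genes, 10 were above both (47.6%, against 3.63% of all genes) and none below. With 32 added 8 were above both. Chrna1, the subunit that binds acetylcholine, read 13.03, 13.13 and 13.24 in CiCM, 5.50 to 6.04 in MEF and 4.90 to 5.53 in CM. Chrng, the subunit of the fetal receptor, read 9.96, 10.30 and 10.59 in CiCM and at most 5.18 elsewhere. Chrnb1 and Chrnd exceeded both groups by at least 3.47 and 4.10. Chrne, of the adult receptor, lay under the median of the table in all groups, at 5.78, 5.99 and 4.61 in CiCM and at most 4.58 elsewhere, and lost its membership with 32 added (it is named after its values were seen). Musk, the receptor kinase that gathers the receptors under the nerve ending, read 9.29, 9.50 and 9.06 in CiCM and at most 5.92 elsewhere.

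The factors that drive skeletal muscle formation were members as well. Of 29 measured myogenic regulators and fusion genes, 12 were above both groups (41.4%, against 3.63% of all genes) and none below. Myog, the factor of muscle differentiation, read 12.73, 12.61 and 12.43 in CiCM, 0.63, 5.29 and 6.18 in MEF and 2.22 to 5.37 in CM. Myod1, which commits cells to muscle, read 10.22, 10.09 and 10.09 in CiCM and at most 6.30 elsewhere, and Myf6, of late differentiation, 11.16 to 11.21 against at most 5.88. Mymk, the membrane protein that fuses myoblasts, read 12.07 to 12.41 in CiCM and at most 5.58 elsewhere. Cdh15, the cadherin of muscle progenitors, exceeded both groups by at least 5.11. The factors of the resting and proliferating progenitor were not members: Pax7 read 0.95 to 4.54 in CiCM and Myf5 4.05 to 5.10, both under the median of the table (these genes were chosen after their values were seen). Mef2c, a factor that skeletal and heart muscle share, read 12.98, 12.99 and 13.24 in CiCM, 10.75 to 11.09 in CM and 7.42 to 8.0 in MEF.

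Promoter sequences are shown for 4 of these genes, since the acetylcholine receptor genes are textbook targets of MyoD family factors, which bind the E-box CAGCTG, and Myh3 shows a promoter with a TATA box. Sequences are the 250 bases before the gene's start on its own strand, from RefSeq (GRCm38.p6), at chr2:73580339-73580588 (minus strand) for Chrna1, chr1:87205561-87205810 (plus strand) for Chrng, chr7:127211358-127211607 (plus strand) for Mylpf and chr11:67078050-67078299 (plus strand) for Myh3. Capitals mark CAGCTG in the first 3 and TATAAA in Myh3.
Chrna1: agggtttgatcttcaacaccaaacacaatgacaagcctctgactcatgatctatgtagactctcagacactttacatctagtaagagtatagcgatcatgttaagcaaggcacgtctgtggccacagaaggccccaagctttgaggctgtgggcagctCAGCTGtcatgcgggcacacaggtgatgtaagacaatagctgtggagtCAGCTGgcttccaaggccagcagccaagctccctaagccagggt
Chrng: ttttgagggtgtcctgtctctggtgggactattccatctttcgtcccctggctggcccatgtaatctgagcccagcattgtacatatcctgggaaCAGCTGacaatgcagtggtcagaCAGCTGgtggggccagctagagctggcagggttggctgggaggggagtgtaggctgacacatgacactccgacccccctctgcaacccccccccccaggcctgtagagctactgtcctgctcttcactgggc
Mylpf: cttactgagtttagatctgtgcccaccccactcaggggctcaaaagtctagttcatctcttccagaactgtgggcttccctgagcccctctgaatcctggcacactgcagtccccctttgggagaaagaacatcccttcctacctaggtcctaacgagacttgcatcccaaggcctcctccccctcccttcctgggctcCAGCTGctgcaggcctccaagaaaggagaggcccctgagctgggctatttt
Myh3: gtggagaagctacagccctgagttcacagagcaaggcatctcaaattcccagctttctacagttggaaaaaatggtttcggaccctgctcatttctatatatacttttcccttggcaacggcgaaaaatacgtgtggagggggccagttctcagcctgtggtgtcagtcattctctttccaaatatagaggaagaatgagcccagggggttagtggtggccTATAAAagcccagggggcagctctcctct

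Chrna1 held CAGCTG beginning 92 and 44 bases before the start, Chrng 155 and 132 bases before it, and Mylpf 51 bases before it, while TATAAA began 29 bases before the start of Myh3. Promoters were listed for 487 of the 661 genes above both, 458 of the 609 below both and 14452 of the 18193 genes measured. CAGCTG was present on either strand, which read alike, in 19.3% of those above both, 15.1% of those below and 14.9% of all. TATAAA, searched on both strands, was present in 16.4%, 14.2% and 10.5%. CTA and TAG with any 4 bases between, a pattern looser than the MEF2 motif, was in 3.90%, 3.71% and 3.54%. These are not shares of MEF2 sites. CATTCC, of TEAD factors, was in 15%, 13.8% and 13.4%. TGACG, a short CREB motif, was in 19.1%, 20.7% and 25.9%, and TGANTCA, of AP-1, in 8.21%, 9.17% and 6.70%. Of the cell cycle motifs TTCCCGC (E2F) was in 5.95%, 5.46% and 6.57% and TTTGAA (CHR) in 13.6%, 17.7% and 14.1%. CpG dinucleotides numbered 10, 9 and 13 at the median, so base composition also differed between the sets, and a match is a description and not a bound site.

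Retinoic acid genes were members in both directions. TTNPB is a synthetic agonist of the retinoic acid receptors, and cells answer retinoic acid by making the enzymes that destroy it. Of 34 measured genes of retinoic acid metabolism and response, 7 were above both groups and 3 below, against 3.63% and 3.35% of all genes. Cyp26a1, the main degrading enzyme, read 9.80, 10.01 and 10.08 in CiCM, 2.0, 2.43 and 1.83 in MEF, and 3.36, 3.41 and 5.35 in CM. Cyp26b1, its relative, read 12.17 to 12.38 in CiCM, 8.47 to 8.63 in MEF and 6.48 to 7.85 in CM. Rarb, a receptor gene that the receptors themselves activate, read 10.85, 10.88 and 10.79 in CiCM, 9.30 to 9.54 in CM and 5.53 to 6.07 in MEF. CM was the higher of the other groups in Rarb, by 3.54 (SE 0.16; limma adjusted p = 1.79e-08), and MEF the higher in Crabp2, a carrier of retinoic acid, in which CM lay lower by a difference of -5.87 (SE 0.42; limma adjusted p = 4.19e-07). Stra6, the uptake receptor for retinol, read 7.65 to 8.13 in CiCM and at most 4.11 elsewhere. Below both groups were Aldh1a1, an enzyme that makes retinoic acid, at 8.29, 7.25 and 6.16 in CiCM and 8.75 or more elsewhere, the receptor kinase gene Ret and the homeobox gene Meis1.

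The promoters of Cyp26a1 (chr19:37697558-37697807, plus strand) and Rarb (chr14:16575477-16575726, minus strand) are shown because both are classical direct targets of the receptors. Capitals mark the retinoic acid response element with 5 bases between its repeats.
Cyp26a1: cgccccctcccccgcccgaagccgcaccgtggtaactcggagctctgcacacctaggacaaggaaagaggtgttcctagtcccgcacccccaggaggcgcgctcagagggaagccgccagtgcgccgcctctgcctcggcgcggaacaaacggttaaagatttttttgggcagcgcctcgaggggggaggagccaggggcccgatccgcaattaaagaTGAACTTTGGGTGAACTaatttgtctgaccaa
Rarb: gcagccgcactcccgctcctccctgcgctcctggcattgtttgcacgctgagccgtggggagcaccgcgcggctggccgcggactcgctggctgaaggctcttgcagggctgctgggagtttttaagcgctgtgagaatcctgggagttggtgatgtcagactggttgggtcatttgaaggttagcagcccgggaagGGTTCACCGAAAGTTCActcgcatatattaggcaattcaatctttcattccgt

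The element began 32 bases before the start of Cyp26a1, where it read on the opposite strand, and 53 bases before that of Rarb. In this form, which was searched for after the sequences had been seen, it was present in 11 of the 14452 promoters and in 3 of the 487 of genes above both, the other being that of Tnfsf13b. The stricter direct repeat of AGGTCA with 5 bases between was found in 1 promoter of 14452 and in none of the members, and with at most 2 mismatches in 3.49% of promoters above both, 1.75% below and 2.35% of all. With 2 bases between, the repeat was found at most 2 mismatches away in 1.44%, 2.18% and 2.47%, and with 1 base between in 3.08%, 2.40% and 3.43%.

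Wnt pathway genes were more often above both groups than below. Of 49 measured targets and modulators, 14 were above both (28.6%) and 2 below (4.08%), against 3.63% and 3.35% of all genes. With the mean over probe sets in place of the brightest one the 14 became 9. Axin2, the feedback target of beta-catenin, read 8.32, 8.80 and 9.05 in CiCM, 6.07 to 6.91 in MEF and 7.14 to 7.96 in CM. The highest CM array was thus close to the lowest CiCM array. The others included the ligands Wnt2 and Wnt4 and the receptors Fzd1 and Fzd9, named to show the range of the list. Several of the rest are extracellular antagonists of the pathway. Sfrp1 read 12.51, 12.99 and 13.03 in CiCM against at most 10.65 in MEF and 9.87 in CM, Sfrp2 10.13 to 10.46 against at most 8.77, and Draxin 7.30 to 8.32 against at most 5.93. Wif1, a further Wnt inhibitor, read 8.51 to 9.22 in CiCM and 8.43 on the highest CM array, at which it nearly touched. Tnfrsf19, a receptor gene that beta-catenin activates, read 9.82 to 10.26 in CiCM, 7.58 to 7.85 in CM and 4.25 to 4.44 in MEF. Below both groups was Ccnd1, the G1 cyclin D1, at 9.88, 9.68 and 9.28 in CiCM, 12.13 to 12.19 in MEF and 11.36 to 11.80 in CM, together with Bmp4.

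Of 42 measured cAMP responsive genes 4 were above both groups (9.52%) and 3 below (7.14%), against 3.63% and 3.35% of all genes. Fos read 13.25, 12.89 and 12.14 in CiCM, 10.55 to 10.82 in MEF and 6.95 to 9.68 in CM, and Fosb 9.41, 8.80 and 7.98 against at most 6.21. Both are immediate early factors. Nr4a3, an orphan nuclear receptor of the same kind of response, read 9.0 to 9.19 in CiCM and at most 7.56 elsewhere. Egr3, another immediate early gene, lay the other way, at 4.53, 4.74 and 1.21 in CiCM against 5.62 or more. Of 34 measured TGF-beta response genes, 1 was above both and 1 below (2.94% each, against 3.63% and 3.35% of all genes). Shares this near those of all genes are no result about the list. The gene above was Tgfbr2, the partner chain of the receptor kinase that RepSox blocks. The gene below was Smad7, an inhibitor that the pathway itself induces. Smad7 read 8.40, 8.01 and 7.54 in CiCM, 9.23 to 9.51 in MEF and 8.78 to 9.53 in CM. With the arrays centred on their medians or levelled on hybridisation controls, no gene of this list was below both. Levelled on the controls, none was above both either. Whether either gene answered to RepSox was not tested. Among 27 BMP and Id genes 5 were above both (18.5%) and 3 below (11.1%), and the CiCM mean was the highest of the 3 groups in 9 and the lowest in 8. Those above included the ligands Gdf5 (8.76, 8.84 and 9.10 against at most 5.82) and Gdf10 (10.43 to 10.49 against at most 8.01) and the antagonist Nog (5.96 to 7.03 against at most 3.01). Below both were Bmp5, Smad6 and the ligand Bmp4, the last at 7.72, 6.66 and 6.84 against 8.68 or more.

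**Figure D3:**
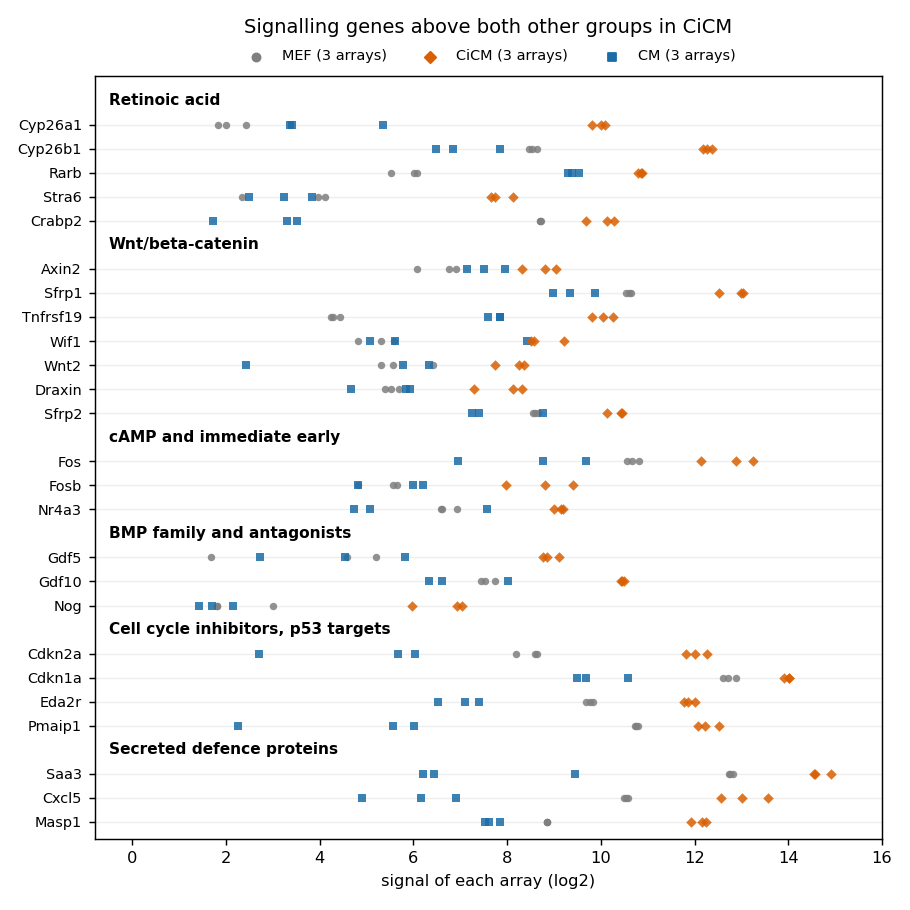
Log2 signal of each of the 9 arrays (horizontal axis) for signalling, cell cycle inhibitor and secreted defence genes above both groups; gray circles are MEF, orange diamonds CiCM and blue squares CM. The CiCM points of Cyp26a1 lie at 9.80 to 10.08 and all others of that gene at 5.35 or less, while in Axin2 and Wif1 the nearest CM point lies close to CiCM.

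The cell cycle inhibitor genes Cdkn2a and Cdkn1a were among the members above both groups, and no other Cdkn gene listed was a member. Of 31 measured genes in a list of cell cycle inhibitors and p53 targets, to which the D cyclins were added, 5 were above both groups. That is 16.1%, against 3.63% of all genes, and the list's median difference was 0.16 from MEF and 1.32 from CM. The 1 gene of this list below both was the cyclin gene Ccnd1. Cdkn2a, encoding the inhibitors p16 and p19Arf, read 12.26, 12.00 and 11.81 in CiCM, 8.18 to 8.64 in MEF and 2.70 to 6.04 in CM. Cdkn1a, encoding p21, read 13.91 to 14.02 in CiCM, 12.60 to 12.88 in MEF and 9.48 to 10.57 in CM. In both genes, and in the p53 targets Eda2r and Pmaip1, MEF lay above CM (limma adjusted p of 2.93e-05 for Pmaip1 and 0.000652 for Cdkn2a). Of 24 heat shock genes 4 were above both (16.7%, against 3.63% of all genes) and none below. The chaperone Hspa1b read 12.81, 12.51 and 12.40 in CiCM against at most 10.68, its near-identical copy Hspa1a 9.55 to 10.00 against at most 8.83, and Hspb3, a small heat shock protein of muscle, 10.95 to 11.20 against 9.71 to 9.91 in CM and at most 5.39 in MEF.

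Secreted proteins of defence, matrix and growth were split. The acute phase protein Saa3 read 14.92, 14.55 and 14.57 in CiCM, 12.73 to 12.82 in MEF and 6.20 to 9.45 in CM, and the neutrophil chemokine Cxcl5 13.57, 13.01 and 12.57 against at most 10.57. Of 16 measured complement genes 4 were above both and 4 below (25% each, against 3.63% and 3.35% of all genes). Those above were the proteases Masp1 (11.92 to 12.25 against at most 8.86), C1s1 and C1ra and the regulator Cfi; those below were the 3 chains of C1q and the receptor C5ar1, which macrophages make. Igf1 read 11.90, 12.42 and 12.35 in CiCM, 10.05 to 10.37 in MEF and 9.75 to 10.18 in CM, and its carrier Igfbp3 12.60 to 13.07 against at most 11.08. Igf2, by contrast, was no member, at 14.30 to 14.51 in CiCM and 14.07 to 14.16 in MEF. Of 39 collagen genes 3 were above both (7.69%, against 3.63% of all genes) and none below. They were the minor chains Col19a1, Col25a1 and Col23a1, at 9.34 to 9.84, 10.93 to 11.57 and 9.58 to 10.15. Npnt, a matrix ligand of integrins, read 11.88 to 12.19 in CiCM, 7.52 to 8.02 in MEF and 5.34 to 5.53 in CM.

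Hox genes and channels added smaller groups. Hox genes mark position along the body axis. Of 33 measured, 5 were above both groups (15.2%, against 3.63% of all genes) and none below. In 26 the CiCM mean was the highest of the 3 groups, as in 4586 of all 18193 genes. Hoxc4 read 10.10, 9.82 and 9.81 in CiCM, 8.77 to 8.86 in MEF and 2.91 to 5.17 in CM, and Hoxd9 9.04 to 9.63 against at most 8.01. Of 62 channel genes 8 were above both (12.9%) and 4 below (6.45%), against 3.63% and 3.35% of all genes. The CiCM mean was the highest of the 3 groups in 17 channel genes and the lowest in 21. Kcnc4, a fast potassium channel, read 9.76, 9.83 and 10.23 in CiCM against at most 5.90, and Scn3b, a sodium channel subunit, 9.92 to 10.25 against at most 7.58. Gjc1, a gap junction gene, was below both, at 7.98 to 8.49 against 10.33 or more. Bex1, expressed in neurons and in regenerating muscle, read 14.19, 14.11 and 14.17 in CiCM and at most 9.24 elsewhere. Of 28 neuronal markers 3 were above both (10.7%, against 3.63% of all genes) and 1, Map2, was below. Map2 lost its membership with 32 added and with the mean over probe sets. The CiCM mean was the highest of the 3 groups in 7 of these markers and the lowest in 11.

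Cav1 led the members below both groups. Of 21 measured genes of the dystrophin complex and caveolae, 3 were below both (14.3%) and 2 above (9.52%). All genes had 3.35% and 3.63%. Caveolae are flask-shaped pits of the cell membrane, coated by caveolins and cavins. Cav1, the main caveolin outside striated muscle, read 8.12, 8.12 and 8.39 in CiCM, 12.94 to 13.01 in MEF and 13.75 to 14.11 in CM. Cav2, its partner, read 7.69 to 8.46 in CiCM, 11.31 to 11.36 in MEF and 12.26 to 12.61 in CM, and Cavin2 8.27 to 9.27 against 11.62 or more. Cav3, the caveolin of muscle, lay the other way, at 12.43, 12.49 and 12.50 in CiCM, 10.68 to 11.48 in CM and 2.63 to 5.42 in MEF. Cav1 and Cav2 are also abundant in endothelium, and 6 of 18 endothelial markers reached the median of the table in MEF, 7 in CiCM and 18 in CM. The log2 of their summed signal was 12.34 to 12.43 in MEF, 10.63 to 10.91 in CiCM and 15.98 to 16.10 in CM, and their part in the caveolar result was not tested.

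Macrophage genes had the largest share below both groups among the 15 marker lists. Of 21 measured markers of macrophages and dendritic cells 13 were below both and none above, against 3.35% of all genes below, and in 20 the CiCM mean was the lowest of the 3, as in 5279 of all 18193 genes. Their mean on an array was 7.21 to 7.69 in CiCM, and 13 of the 21 still reached the median of the table there. C1qa, a chain of the first complement component, read 8.48, 8.02 and 7.78 in CiCM, 11.80 to 11.90 in MEF and 11.65 to 11.92 in CM. C1qb and C1qc were lower than either group by at least 3.25 and 3.60. Ptprc, the common leukocyte antigen CD45, read 6.35, 5.44 and 6.16 in CiCM and 9.49 or more elsewhere, and Adgre1, the macrophage antigen F4/80, 8.24, 8.65 and 8.25 against 9.39 or more. Mrc1, the mannose receptor, and Fcgr3, an antibody receptor, were lower by at least 3.18 and 3.59. In bulk samples such as these, fewer cells of a type and less RNA per cell cannot be told apart.

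Endothelial markers were below both groups in 5 of 18 genes (27.8%, against 3.35% of all genes) and above in none. Flt1, a receptor for VEGF, read 7.12, 7.18 and 7.65 in CiCM, 10.77 to 10.88 in MEF and 9.76 to 10.50 in CM. Emcn, a sialomucin of vessels, read 5.40 to 6.12 in CiCM, 8.08 to 8.35 in MEF and 10.76 to 11.40 in CM. Fabp4, a fatty acid carrier of capillaries and fat cells, read 8.15, 8.05 and 6.68 in CiCM, 10.95 to 11.07 in MEF and up to 15.25 in CM. Cd93, a receptor of endothelial and myeloid cells, read 4.79 to 5.69 in CiCM, 9.25 to 9.40 in MEF and 11.96 to 12.44 in CM. Pecam1, the usual defining marker, was no member, since its MEF values of 3.25, 5.92 and 6.78 overlapped those of CiCM. With 32 added, 3 of the 5 kept their membership, and Esam and Tie1 did not.

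Genes of cell division made up a further group. Of 47 measured genes of mitosis and DNA replication 15 were below both groups (31.9%) and 1, E2f2, above (2.13%). All genes had 3.35% and 3.63%. In 34 of the 47 the CiCM mean was the lowest, as in 5279 of all 18193 genes. The 15 became 6 when the arrays were levelled on their hybridisation controls and 11 when centred on their medians. Cenpa, the histone of the centromere, read 6.22, 5.91 and 5.62 in CiCM, 11.01 to 11.13 in MEF and 10.22 to 10.49 in CM. Cenpf, a kinetochore protein, read 5.91, 3.88 and 3.14 in CiCM against 8.60 or more. Mki67, the proliferation antigen Ki-67, read 5.74, 5.70 and 6.24 in CiCM, 10.63 to 11.18 in MEF and 8.42 to 9.50 in CM, and Top2a, which untangles chromosomes, 6.09 to 6.79 against 8.02 or more. Mcm5, of the replicative helicase, read 6.70 to 7.69 in CiCM and 8.75 or more elsewhere. In Mki67, Top2a and Mcm5 CM was lower than MEF as well, by differences of -1.93, -3.32 and -1.92 (limma adjusted p of 8.36e-05, 3.74e-07 and 4.29e-05). Cenpa (-0.69) and Cenpf (1.36) were not called between CM and MEF.

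Developmental factors and antigen presentation were also represented. Meox1, a homeobox gene of the somites and of fibroblasts, read 3.88, 5.44 and 2.59 in CiCM, 9.01 to 9.15 in MEF and 8.47 to 9.27 in CM. Zfpm2, the cofactor FOG2 of GATA factors in the heart, read 7.39, 5.83 and 4.19 in CiCM, 9.55 to 9.81 in MEF and 10.10 to 10.29 in CM. Hand2, a heart factor, was the only cardiomyocyte marker of 20 below both groups, at 5.94, 6.28 and 6.51 in CiCM, 7.35 to 7.71 in MEF and 10.15 to 10.43 in CM. Hand2 lost its membership with 32 added and with the mean over probe sets. Of 24 measured cardiac transcription factors 4 were above both (16.7%), Mef2c, Isl1, Tbx3 and Foxh1, and 3 below (12.5%). All genes had 3.63% and 3.35%. With the mean over probe sets the smaller difference turned to -0.05 for Tbx3 and -0.30 for Foxh1. Of 39 interferon and class I genes 8 were below both (20.5%) and 1, Ifitm1, above (2.56%). The class I chains H2-D1 and H2-K1, whose related sequences probe sets may not separate, read 10.39 to 10.56 and 10.85 to 11.04 in CiCM against at least 12.46 and 12.22 elsewhere. With the mean over probe sets the smaller difference of H2-D1 turned to 0.20. Psmb8, of the immunoproteasome, read 7.09, 7.17 and 6.75 in CiCM and 9.25 or more elsewhere.

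Single matrix and enzyme genes complete the leading members below both. Mgp, an inhibitor of calcification, read 9.96, 9.48 and 8.29 in CiCM, 13.45 to 13.54 in MEF and 12.88 to 14.02 in CM. Pcolce2, which aids the trimming of procollagen, read 2.74, 5.10 and 2.09 in CiCM and 9.14 or more elsewhere. P4ha3, a collagen hydroxylase, read 6.36, 6.65 and 6.34 in CiCM and 9.72 to 10.02 in MEF, but in CM 7.23, 13.17 and 13.32, the low value being that of replicate 1. Klk8 (a secreted protease), Trib2 (a pseudokinase), Coro1a and Lcp1 (actin-binding proteins of leukocytes), and Aif1, Ly86, F13a1 and Cmklr1 (genes of myeloid cells) were lower than either group by 3.24 (Trib2) or more.

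**Figure D4:**
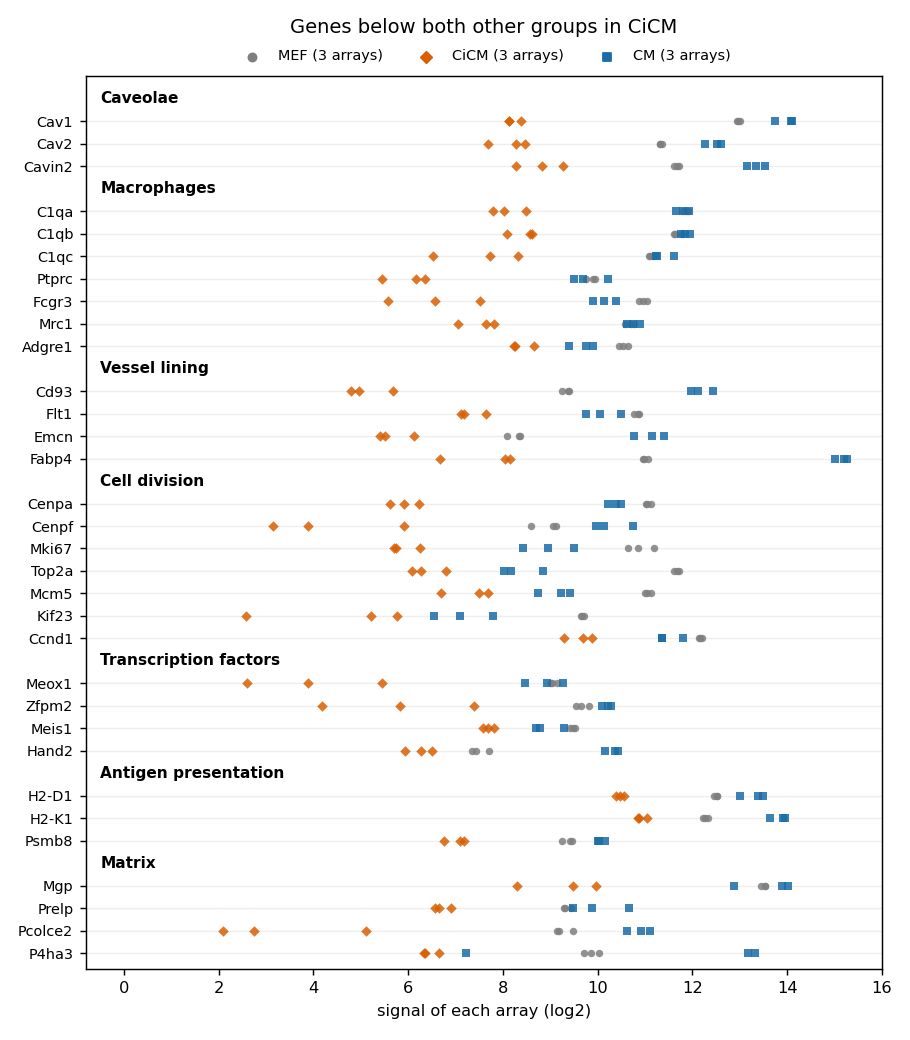
Log2 signal of each of the 9 arrays (horizontal axis) for genes below both groups, by role; gray circles are MEF, orange diamonds CiCM and blue squares CM. The CiCM points of Cav1 lie at 8.12 to 8.39 and those of the other groups at 12.94 or more, whereas for P4ha3 the CM array of replicate 1, at 7.23, lies close to CiCM.

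Several large programmes held few or no members. Of 46 measured oxidative phosphorylation genes none was above or below both groups, and the list's median difference was 0.83 from MEF and -1.29 from CM, so CiCM lay between. None of 20 fibroblast markers was a member, and none of 28 sterol and fatty acid synthesis genes. Of 46 glycolysis and glycogen genes 1 was above both and 2 below, near the 3.63% and 3.35% of all genes. Shares this close to the background are no result about a list.

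**Figure D5:**
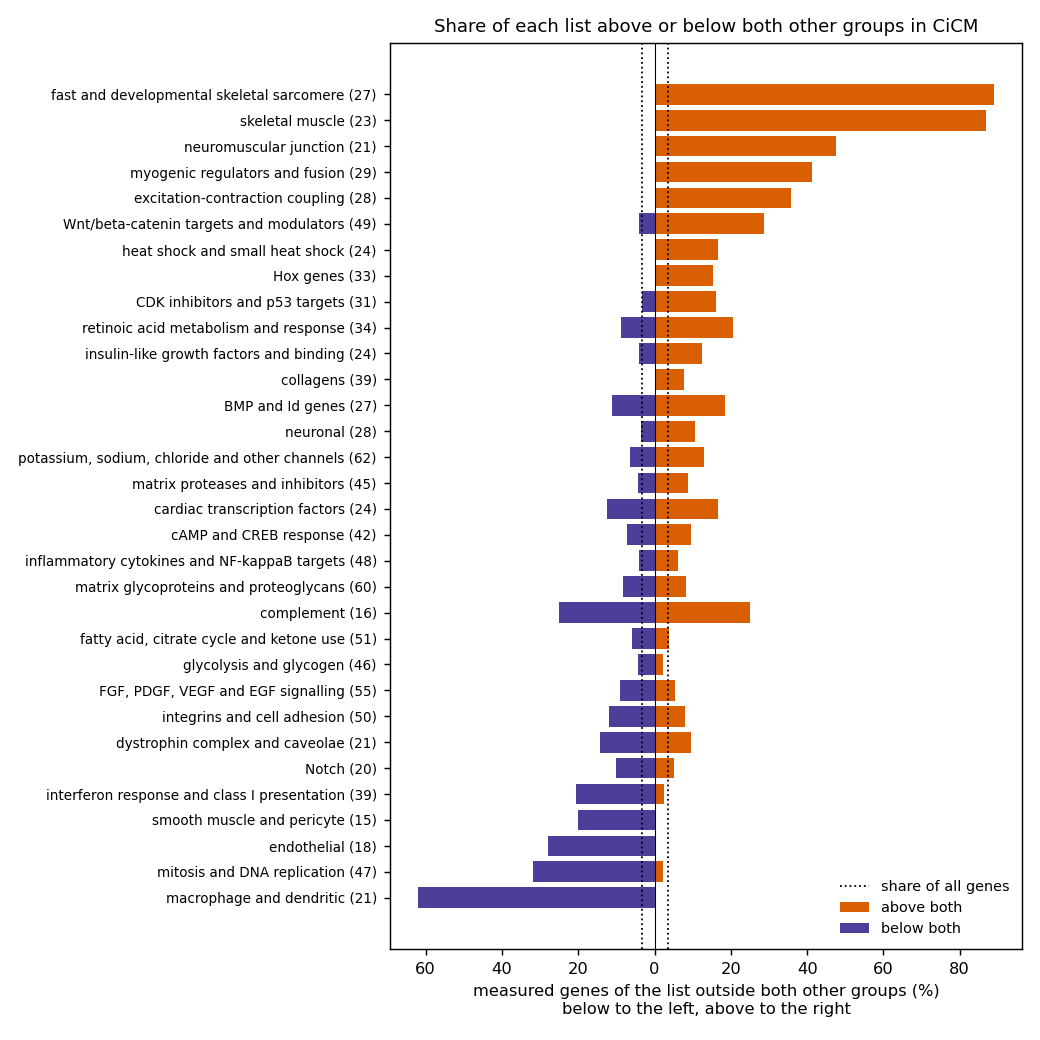
Share of measured genes above both groups (orange, to the right) and below both (violet, to the left), in percent, for the lists with at least 15 measured genes and at least 3 members; the number measured is in parentheses and dotted lines mark the shares among all genes, 3.63% and 3.35%. The skeletal sarcomere list has the longest bar to the right, with 24 of 27 genes, and the macrophage list the longest to the left, with 13 of 21.

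The difference between CM and MEF was also fitted, but the rule bears on it: CiCM had to lie outside all 6 other arrays, which a gene with a wide gap between MEF and CM meets less easily. The shares among members are therefore a description, and nothing is read from their distance to the shares of all genes. Of 12559 genes whose highest group mean reached the median of the table, 2779 were higher in CM than in MEF (22.1%) and 2736 lower (21.8%; called at a limma adjusted p below 0.05 when the means were also at least 1 apart). Among the 575 tested genes above both groups, 94 were higher in CM (16.3%), 102 lower (17.7%) and 379 not called. Among the 522 tested genes below both, 110 were higher in CM (21.1%), 79 lower (15.1%) and 333 not called. The fit pooled the spread of all 3 groups, so it also drew on the CiCM values by which members were chosen. The SEs and adjusted p-values printed for members, here and in earlier paragraphs, are therefore descriptions too. Fitted on the MEF and CM arrays alone, 77 genes above both were higher in CM and 89 lower. Among genes below both, 115 were then higher and 88 lower. Over all genes the calls went from 5515 to 5497. The filter took the highest of the 3 group means, so 255 of the 575 genes entered through CiCM alone, with MEF and CM both under the median of the table. The split between higher and lower calls depends on how the arrays are levelled: centred on array medians it became 2094 higher and 3879 lower over all genes, and on hybridisation controls 1551 and 5483. Casq1 was higher in CM by 2.62 (SE 0.39; limma adjusted p = 0.000139).

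Some members lie next to each other in the genome, in the order of measured genes in RefSeq (GRCm38.p6). Of the 661 genes above both, 77 stood next to another of them, and of 607 placed genes below both 76 did. The same count for sets drawn from all genes was not computed, so no clustering is read from these numbers. The longest run above both was Myh2, Myh1, Myhas, Myh4 and Myh8 on chromosome 11, the cluster of fast skeletal myosins. Chil1, Mybph and Myog stood together on chromosome 1, and Otog, Myod1 and Kcnc1 on chromosome 7. Below both, Ifi209, Ifi207, Ifi204 and Mndal, of an interferon-induced family, stood together on chromosome 1, the 3 C1q genes on chromosome 4 and the inflammasome genes Naip2, Naip5 and Naip6 on chromosome 13. Members of such families are related in sequence, so their probe sets are not independent measurements, and the neighbours in these runs were named after their values had been seen.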

How the data were processed

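Total RNA of 9 samples in 3 groups, labelled as biological replicates, was measured on Affymetrix 3' arrays; whether replicates were separate animals or cultures is not stated, so spread may be partly technical. The authors deposited log2 signals of 45101 probe sets; MAS5 is named in the submitters' processing notes, and the genome build is not given in the sources used here. The 2% trimmed mean of linear signals was 500.003 on each array, so the arrays were scaled globally. From these values, 34945 probe sets with 1 gene symbol gave 18193 genes, each read from its brightest probe set on average; 9160 probe sets with no symbol, 932 with several and 64 controls were left out.

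Members and lists were chosen with earlier results of these data known. Genes are named from the 25 leading members in each direction, up to 6 per list and direction in the order with 32 added, the limit's edges and a few checks; exceptions are stated. CM was compared with MEF with limma 3.58.1 (R 4.3.3; lmFit, eBayes with trend, Benjamini-Hochberg) over 12559 genes with a group mean at or over 6.58, in 1 fit of all 9 arrays, and the code was tested on simulated data. The number of arrays limits the precision. Alternatives were other scalings, offsets, filters, probe set rules, a replicate block and leaving out each array. Promoters came from RefSeq (GRCm38.p6).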

Additional observations from a re-analysis of the deposited data

How the results depend on the processing

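The 661 genes above both groups became 357 with the largest offset tried added to the linear signals, 357 among genes reaching the 75th percentile of the table, 1793 with no minimum difference, 285 with a minimum of 2 and 368 with a gap of at least 1 between the nearest arrays. The 609 genes below both became 393 with 32 added, 176 with that largest offset, 379 when every probe set had to meet the rule, 292 at the 75th percentile, 1578 with no minimum difference, 220 with a minimum of 2 and 263 with the gap. These counts follow from stricter or looser rules. Leaving out 1 array gave 668 to 787 genes above both and 652 to 798 below. Quantile normalization, centring on medians and levelling on hybridisation controls gave 696, 748 and 716 genes above both and 545, 514 and 442 below; they moved the median difference of all genes between CM and MEF by -0.19, -0.37 and -0.80. The cause was not tested. Of 3456 values of 216 named genes, 3 reversed, all with the mean over probe sets: Foxh1 (-0.30), H2-D1 (0.20) and Tbx3 (-0.05).

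For CM against MEF the 5515 genes called became 8790 with no minimum difference, which is a looser rule, and 5343 to 5660 when 1 array was left out. Same-numbered arrays did not deviate together (correlations of -0.02 to 0.07), so no pairing by number was seen. This does not show that same-numbered samples had separate origins. With the replicate number as a block, 5508 genes were called. Signal over background limits genes under the median of the table, where a few units can separate values at the floor.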

Other observations

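Of the 661 genes above both groups 28 (4.24%) are listed by RefSeq as long noncoding RNAs, and of the 609 below both 32 (5.25%), against 8.01% of all genes. A930003A15Rik, one of them, read 12.22, 12.09 and 11.95 in CiCM, 4.30 to 4.86 in MEF and 2.56 to 5.71 in CM. Myhas, which lies among the fast myosin genes, read 12.24, 12.35 and 12.19 in CiCM and at most 6.23 elsewhere. These 2 had the largest differences of the 28, at ranks 18 and 19 among all genes above both. Of 10092 probe sets without a single gene symbol, 215 were above both groups and 283 below by the same rule. Both are smaller shares than the 3.63% and 3.35% of all genes.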
